A study of Mus musculus with 10 samples.

Results

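A transcript cluster is the unit that a whole-transcript array summarises as 1 gene: a set of probe sets that lie on 1 transcribed locus. Some clusters carry the symbols of several genes in the platform annotation, because gene copies are alike in sequence, because genes overlap or adjoin, or because a processed copy of 1 gene lies inside another. The annotation of the gene-level array listed 2 or more gene symbols for 1019 of 23332 clusters. The clusters described here are the 548 of these whose highest signal on the 5 arrays reached 3.79 on the log2 scale, the 40th percentile over that whole table. They were chosen by measured signals of the same arrays that give the differences below, so no difference from sham is independent of the choice. The other 471 stayed below that level on all 5 arrays. Where 5 signals follow each other below, they run from sham to the last time after injury. A signal of such a cluster cannot be assigned to 1 of its genes, so each is named below by the genes it lists.

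The arrays measured the spinal cord at thoracic segment 10 of wild-type ICR mice, an outbred stock, after a sham operation or 1 day, 3 days, 1 week or 3 weeks after spinal cord injury. The labels give an age of 4 weeks for every sample and no time for the sham group. If 4 weeks is the age at surgery, time after injury and age cannot be told apart. RNA of 3 mice was pooled per group, 15 mice in 5 groups, and each pool is reported at both a gene level and an exon level. With 1 pooled array per group there are no replicates, no standard deviation between animals and no test. A cluster is said to have risen or fallen when its log2 signal differed from sham by at least 1, which is 2-fold. Fewer cells of a type and less RNA per cell cannot be told apart in such pools. The median gene-level signal lay between 4.52 and 4.76 on the 5 arrays.

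Gene families grow by duplication, and copies that stay alike are hard to separate with short probes. Receptors of innate immune cells, chemokines, histones, antigen-presenting proteins of the major histocompatibility complex (MHC) and the receptors for odours and pheromones are families of this kind. In injured spinal cord, blood-derived macrophages and resident microglia are the main cells known to carry the innate receptors, while many neuronal genes are long and can hold copies of other genes in their introns.

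The sequences below show how unequal the likeness of promoters within 1 cluster is. Most of each window lies before the start of the gene. Likeness of promoters is therefore not likeness of the transcripts that the probes measure, which were not compared. Each sequence is 300 bases from RefSeq, assembly GRCm38.p6, read 5′ to 3′ on the strand of the gene, from 250 bases before its start to 50 after. Lysozyme 2 and lysozyme 1, whose products cut bacterial cell walls, lie next to each other. Their promoters were 81.9% identical in a global alignment, and capitals mark their longest shared run, 86 bases. Ccl6 and Ccl9, chemokines known from rodents, also share a cluster, but their promoters were 49.7% identical and capitals mark a longest shared run of 13 bases.
Lyz2, chr10:117282223-117282522, minus strand: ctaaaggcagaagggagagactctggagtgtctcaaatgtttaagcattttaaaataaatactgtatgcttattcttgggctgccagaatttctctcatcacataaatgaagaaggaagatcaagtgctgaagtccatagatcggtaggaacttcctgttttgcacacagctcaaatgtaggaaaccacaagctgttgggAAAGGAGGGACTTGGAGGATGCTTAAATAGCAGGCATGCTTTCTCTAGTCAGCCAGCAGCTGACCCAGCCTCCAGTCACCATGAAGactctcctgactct
Lyz1, chr10:117292819-117293118, minus strand: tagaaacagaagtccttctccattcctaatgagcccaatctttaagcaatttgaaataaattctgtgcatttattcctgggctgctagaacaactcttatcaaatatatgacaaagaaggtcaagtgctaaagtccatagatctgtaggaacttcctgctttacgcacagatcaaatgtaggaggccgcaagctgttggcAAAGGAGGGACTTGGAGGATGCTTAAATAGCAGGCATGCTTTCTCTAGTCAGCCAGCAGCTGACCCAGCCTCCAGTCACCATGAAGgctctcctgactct
Ccl6, chr11:83593038-83593337, minus strand: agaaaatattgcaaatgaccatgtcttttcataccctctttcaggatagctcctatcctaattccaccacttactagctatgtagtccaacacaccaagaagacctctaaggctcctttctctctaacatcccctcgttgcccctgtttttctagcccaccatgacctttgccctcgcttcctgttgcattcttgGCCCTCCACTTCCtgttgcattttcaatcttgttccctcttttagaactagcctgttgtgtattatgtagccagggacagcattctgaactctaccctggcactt
Ccl9, chr11:83578587-83578886, minus strand: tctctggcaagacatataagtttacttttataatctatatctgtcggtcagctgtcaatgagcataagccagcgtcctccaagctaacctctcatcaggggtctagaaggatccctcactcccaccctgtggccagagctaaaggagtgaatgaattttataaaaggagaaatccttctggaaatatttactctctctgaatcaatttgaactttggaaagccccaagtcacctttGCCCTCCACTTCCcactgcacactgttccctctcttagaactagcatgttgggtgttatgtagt

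Genes can also share a promoter. The histone genes H2bc8 and H2ac8 are read in opposite directions, and 279 bases are common to both promoter windows. Ang and Rnase4, which encode secreted ribonucleases, share 1 start and so have the same 300 bases, printed once. In these sequences capitals mark the motifs CCAAT and TATAAA, searched on both strands (as ATTGG and TTTATA on the opposite strand). The motifs do not overlap each other. Of 32851 RefSeq promoters, 37.4% hold CCAAT and 13.6% hold TATAAA.
H2bc8, chr13:23571150-23571449, plus strand: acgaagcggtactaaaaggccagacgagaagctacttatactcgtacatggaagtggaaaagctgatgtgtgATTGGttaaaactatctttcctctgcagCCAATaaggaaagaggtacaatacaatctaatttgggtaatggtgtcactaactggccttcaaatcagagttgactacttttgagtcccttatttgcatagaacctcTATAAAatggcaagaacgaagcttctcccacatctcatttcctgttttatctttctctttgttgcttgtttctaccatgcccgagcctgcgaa
H2ac8, chr13:23571171-23571470, minus strand: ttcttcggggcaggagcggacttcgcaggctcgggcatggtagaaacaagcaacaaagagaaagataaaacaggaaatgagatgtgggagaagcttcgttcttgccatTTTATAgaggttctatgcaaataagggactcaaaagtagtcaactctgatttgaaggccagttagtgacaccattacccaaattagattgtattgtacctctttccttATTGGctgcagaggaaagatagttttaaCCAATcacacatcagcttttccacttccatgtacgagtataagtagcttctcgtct
Rnase4, chr14:51090827-51091126, plus strand: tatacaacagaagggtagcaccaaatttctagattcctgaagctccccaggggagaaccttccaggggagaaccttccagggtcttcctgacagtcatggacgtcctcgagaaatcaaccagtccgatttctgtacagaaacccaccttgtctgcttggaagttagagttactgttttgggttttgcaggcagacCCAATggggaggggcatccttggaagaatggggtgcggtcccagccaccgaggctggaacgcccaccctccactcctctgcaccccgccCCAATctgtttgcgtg

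A RefSeq promoter was matched for at least 1 gene of 515 of the 548 clusters, and for at least 2 genes of 344. The median identity of the most alike pair of promoters was 57.1% over 140 clusters of like-named genes, of which 41 reached 80%. It was 50.6% over 134 clusters of differently named genes on 1 chromosome, where 11 reached 80%, and 50.3% over 47 clusters whose genes lie on different chromosomes, where 0 did. A cluster that lists more genes has more pairs from which the most alike is taken, and this was not adjusted for. Windows with the same bases, such as those of Ang and Rnase4, are counted among those that reached 80%. The CCAAT motif was found in the promoters of all 5 genes with a sequence in the cluster that lists H2bc3, and in all 9 of the cluster that lists H2ac4. TATAAA was found in 2 and 5 of them. Among the 5, the promoters of H2bc23 and H4bc24 were 100% identical, so these genes are not separate cases.

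Of the 548 clusters, 454 list 2 symbols, 57 list 3, and 4 list 13, the most. Genes of like name made up 550 of the 1019 listed clusters and 198 of the 548. Differently named genes on 1 chromosome made up 221 listed clusters, of which 179 passed, and genes on different chromosomes 99, of which 72 passed. A further 131 listed clusters pair a named gene with an unnamed gene model, and 90 of these passed. The rest were clusters with a symbol that could not be placed, 7 of 12, or with symbols of the same gene, 2 of 6. Of the families searched, olfactory receptors, which detect odours, were the most often listed, with 113 clusters, but only 15 passed the filter. Vomeronasal receptors, which detect pheromones, had 30 listed and 1 passing, and cytochromes P450, oxidising enzymes, had 23 listed and 2 passing. Zinc finger proteins, mostly transcription factors, kept 31 of 45, histones 12 of 18 and ribosomal proteins 13 of 14. In all, 133 of the 548 belonged to a family searched, and 415 to none.

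Since the rule used the level, a cluster that passed through 1 high array had to differ between arrays. Of the 548, 448 were at or above the filter on all 5 arrays and 32 on only 1, which was sham in 7, and the arrays after injury, in order of time, in 5, 0, 7 and 13. Just inside the filter lay the cluster listing Krtap6-5 and Krtap6-1, with a highest signal of 3.79, and the cluster listing Tcp11 and Tsen34, with 3.81. Just outside lay the clusters listing Rbm12b1 and Rbm12b2, with 3.79, and Olfr444 and Olfr441, with 3.78.

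At 1 day after injury 29 of the 548 clusters were at least 2-fold higher than sham and 27 at least 2-fold lower. These are 5.29% and 4.93%, beside 4.12% and 4.97% of all 15191 clusters past the same filter and 3.76% and 4.19% of the 11370 with 1 symbol. At 3 days 46 were higher and 53 lower, 8.39% and 9.67%, beside 6.31% and 9.45% of all clusters and 5.89% and 9.67% of those with 1 symbol. At 1 week the numbers were 76 and 70, 13.9% and 12.8%, beside 11.2% and 13.4% of all clusters and 11.2% and 14% of those with 1 symbol. At 3 weeks 53 were higher and 22 lower, 9.67% and 4.01%, beside 7.93% and 3.29% of all clusters and 8.47% and 3.44% of those with 1 symbol. The shares of the shared clusters thus lay near those of all clusters at each time. Their median difference was -0.11, -0.07, 0.00 and 0.00 at the 4 times, beside -0.14, -0.11, -0.06 and 0.00 over all clusters. The split of calls depended on the scaling of the arrays: calls that were higher made up 51.8%, 46.5%, 52.1% and 70.7% as deposited, 72.0%, 57.1%, 56.0% and 65.7% after quantile normalization, and 65.3%, 50.5%, 52.4% and 57.5% with each array centred on its median.

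**Figure D1:**
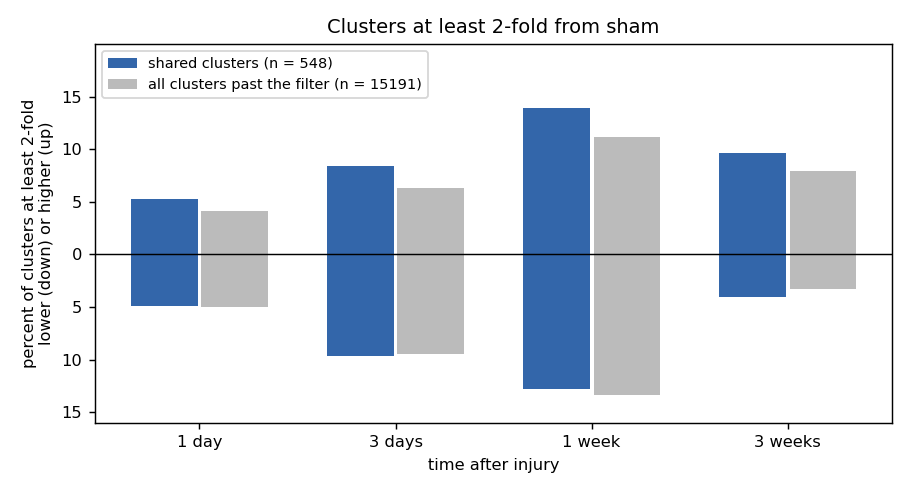
Percent of clusters at least 2-fold higher (bars up) or lower (bars down) than sham at each time after injury, for the 548 clusters shared by several genes (blue) and all 15191 clusters past the filter (grey). Blue and grey bars have similar heights, and both are tallest at 1 week, with 13.9% of shared clusters higher and 12.8% lower.

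Over the 4 times, 179 clusters differed from sham by at least 2-fold at 1 or more and 369 at none. Of the 96 that were higher at any time, 62 had their highest rise at 1 week and 19 at 3 weeks. Of the 88 that were lower at any time, 62 were deepest at 1 week and 3 at 3 weeks. The rise was sustained at all 4 times in 16 clusters and the fall in 11, while 5 clusters rose at 1 time and fell at another. Among the 11, the clusters listing Olfr519 and Olfr516, and Nudt11 and Nudt10, reached the filter only in sham, so the rule favoured their fall. Counts over several times are not given here for all clusters, so these have no background beside them. Like-named genes, 198 of the 548 clusters, gave most of the rises, 22 of 29 at 1 day and 43 of 76 at 1 week. They also gave 10 of 27 falls at 1 day and 16 of 70 at 1 week. The 179 clusters of differently named genes on 1 chromosome gave 2 of the 29 rises at 1 day and 11 of the 27 falls. At 1 week they gave 11 rises and 25 falls. The 72 clusters of genes on different chromosomes gave 8 rises and 13 falls at 1 week. Over all 15191 clusters past the filter, 4.12% were higher and 4.97% lower at 1 day, and 11.2% and 13.4% at 1 week.

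The largest rises at 3 days and 1 week were in clusters of receptors and secreted proteins of myeloid cells. At 1 day, the cluster of the muscle myosins Myh4 and Myh1 had the next largest rise after that of Lilrb4a and Lilr4b, 4.29. Lilrb4a encodes an inhibitory leukocyte immunoglobulin-like receptor and Lilr4b is its neighbour of like name. The signal of their cluster was 2.97 in sham and 9.51, 10.80, 10.78 and 9.81 at the 4 times after injury. It was below the filter in sham and high on all 4 arrays after injury, with differences of 6.54, 7.83, 7.81 and 6.84. Exon-level medians of a cluster, here and below, are over all kept probe sets that carry any of its symbols, so they can mix its genes. For this cluster the median over 12 such probe sets differed by 6.06, 7.53, 7.72 and 6.30. The 6 probe sets that carry Lilrb4a alone had a median difference of 7.16 at 1 week, and the 6 that carry both genes 7.72.

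Both lysozyme genes share 2 clusters, of which the main one, listing Lyz2 first, had signals of 4.67 in sham and 7.35, 10.66, 11.90 and 11.19 at the 4 times after injury. This cluster rose from 1 day to 1 week and stayed high, with differences of 2.68, 5.99, 7.23 and 6.52. The cluster listing Lyz1 first had signals of 3.69, 3.94, 5.995, 7.96 and 7.45 in the same order, a rise from 3 days on. At the exon level the 6 probe sets of Lyz2 alone had a median difference of 6.90 at 1 week (SD 0.88 over probe sets) and the 4 of Lyz1 alone 6.13 (SD 1.30), a difference within the spread between probe sets. Lyz2 is the lysozyme known from macrophages and Lyz1 the one known from Paneth cells of the gut.

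Fcgr2b encodes the inhibitory and Fcgr3 an activating low-affinity receptor for immunoglobulin G. Their cluster had signals of 4.34 in sham and 7.51, 8.46, 9.53 and 7.86 at the 4 times after injury. All 4 arrays after injury lay above sham, by 3.17, 4.12, 5.19 and 3.52, highest at 1 week. The 8 probe sets of Fcgr2b alone had a median difference of 5.74 (SD 2.44) at 1 week and the 6 of Fcgr3 alone 4.53 (SD 0.37), so both genes' own probe sets rose. The cluster of the chemokines Ccl6 and Ccl9 had signals of 3.91, 8.13, 8.48, 8.45 and 7.06. It was already near its highest level at 1 day, and the probe sets of each gene alone rose at 1 week, by a median of 4.37 for Ccl6 (7 probe sets) and 3.78 for Ccl9 (6).

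Other immune clusters rose later or less. The cluster listing Ms4a7 and Ms4a14, membrane proteins of which Ms4a7 is known from macrophages, had signals of 1.90, 2.83, 4.78, 7.16 and 6.20. Its difference at 1 day was 0.93, and it rose at the 3 later times. The cluster listing Ifi204, Ifi211 and Ifi205, interferon-inducible sensors of DNA, had signals of 2.36, 5.50, 5.81, 6.11 and 5.35, a rise at all 4 times. Csf2rb and Csf2rb2, receptor chains for cytokines such as interleukin 3, share a cluster that differed by 1.49, 2.20, 3.53 and 2.11. Clusters listing Naip5 and Naip6, sensors of bacterial flagellin, rose by 2.48 and 2.45 at 1 week for the 2 clusters and were within 2-fold of sham at the other times. The probe sets of Naip5 alone rose also at 3 days, by 1.61, and at 3 weeks, by 2.11, and those of Naip6 alone at 3 weeks, by 1.18. Ctla2a and Ctla2b, cysteine protease inhibitors, share a cluster that rose by 2.50, 2.74, 2.08 and 1.05, the last beside an exon-level median of 0.53. Tagln2, an actin-binding protein, and its overlapping or adjoining partner Cfap45 share a cluster that rose by 2.48, 2.87, 3.61 and 2.38, and all 6 of its exon-level probe sets carry Tagln2 alone. The cluster listing Ang and Rnase4, whose shared promoter is printed above, had signals of 6.53, 6.31, 8.52, 9.92 and 8.78 and rose at 3 days, 1 week and 3 weeks.

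Markers of macrophages moved with these clusters: of 6, 5 were higher at 1 day and 6 at each later time, and their summed linear signal was 106 in sham and 1127, 3863, 9748 and 3796 at the 4 times after injury. Of 6 neutrophil markers 4, 6, 6 and 5 were higher. Microglia markers had a median difference of -1.18 at 1 day and 0.84, 1.50 and 1.50 later. The part of these cell types in the rises was not tested. By distance over the 4 differences, the clusters nearest to that of Lilrb4a and Lilr4b among the 548 were those of Lyz2 and Lyz1 at 4.33, Ccl6 and Ccl9 at 6.36, and Fcgr2b and Fcgr3 at 6.56.

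**Figure D2:**
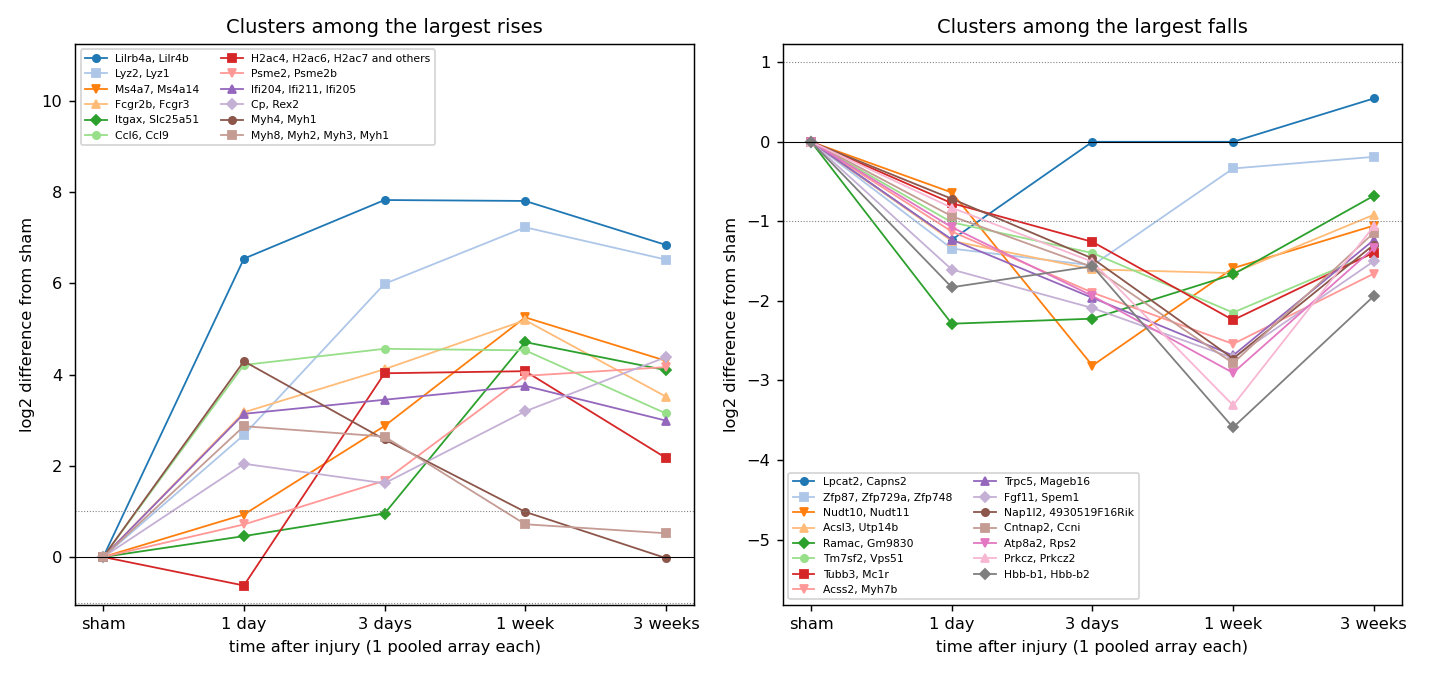
Log2 difference from sham (vertical axis) at sham, 1 day, 3 days, 1 week and 3 weeks (horizontal axis) for clusters among the 6 largest rises or falls at any time that had at least 4 exon-level probe sets moving together. Each line is 1 cluster, and dotted lines mark 2-fold. The cluster of Lilrb4a and Lilr4b reaches 6.54 at 1 day, that of Lyz2 and Lyz1 reaches 7.23 at 1 week, and most falling clusters are deepest at 1 week.

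A second set of clusters was highest at 3 weeks at the gene level. Cp encodes ceruloplasmin, a copper-carrying oxidase of iron, and shares a cluster with Rex2. Its signal was 5.49 in sham and 7.54, 7.11, 8.69 and 9.87 at the 4 times after injury. It rose at all 4 times, by 4.38 at 3 weeks. C4b and C4a, the complement component 4 genes, share a cluster with signals of 5.42, 5.71, 6.19, 6.69 and 9.11, which rose at 1 week and again at 3 weeks. The complement proteases C1s1 and C1s2 share a cluster with signals of 2.20, 2.31, 2.34, 2.72 and 5.04. It rose only at 3 weeks, and it was below the filter on the other 4 arrays. The class II antigen-presenting genes H2-Eb1 and H2-Eb2 share a cluster with signals of 4.11, 4.86, 4.16, 4.86 and 7.87, which also rose only at 3 weeks. Class II clusters with 1 symbol moved earlier. Of 3, 1, 2, 2 and 2 were higher at the 4 times, with medians of 0.69, 1.35, 1.80 and 3.32. Psme2, an interferon-induced activator of the proteasome, and its like-named copy Psme2b are listed together in more than 1 cluster past the filter. Only 1 of these is described here, with signals of 2.35, 3.06, 4.02, 6.32 and 6.52. It rose from 3 days on, by 3.97 at 1 week and 4.16 at 3 weeks. The median over its exon-level probe sets was 2.23 at 1 week and 1.66 at 3 weeks, so the exon level was highest at 1 week. Of 6 fibroblast and meninges markers, 0, 5, 6 and 6 were higher at the 4 times, with medians of 3.90 at 1 week and 3.86 at 3 weeks. Of 4 astrocyte markers, 0 were higher at 3 weeks, with a median of 0.71, their highest. Of 6 T and NK cell markers, 2 were higher at 3 weeks, and 5 were at the filter then, against 0, 0, 0 and 1 on the arrays before. The part of these cell types in the rises at 3 weeks was not tested.

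MHC class I genes present peptides to T cells and are a family of near-identical copies. Of 6 clusters of this family, 1, 3, 3 and 3 were higher and 1, 0, 0 and 1 lower at the 4 times, with medians of 0.47, 1.10, 1.62 and 0.76. The 1 cluster of this family with 1 symbol past the filter stayed within 2-fold of sham at each time. The cluster listing H2-K1, H2-K2 and H2-D1 had signals of 4.29, 5.80, 5.80, 6.65 and 6.28, and that of H2-T10 and H2-T22 4.58, 3.18, 5.87, 6.90 and 6.61. The latter fell at 1 day and rose at the 3 later times at the gene level. Its exon-level medians were 0.11, 0.19, 1.46 and 0.94, past 2-fold only at 1 week. For the cluster of H2-K1, H2-K2 and H2-D1, a rise of 1.99 at 3 weeks stood beside an exon-level median of 0.67. That median mixes genes: it was 1.12 over the probe sets of H2-K1 alone and -0.29 over those of H2-D1 alone. The cluster that lists H2-D1, H2-Q2, H2-K1 and 4 more symbols had signals of 7.61 in sham and 8.55, 10.16, 10.76 and 1.82 at the 4 times after injury. The value of the 3-week array lay far below all others, a difference of -5.80 from sham.

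The exon level did not show that fall as a whole. Of the 45 probe sets that carry a symbol of this cluster, 6 were at least 2-fold lower than sham at 3 weeks and 19 higher, with a median difference of 0.68. Of the 10 that carry H2-D1 alone, 3 were lower and 0 higher, with differences from -5.85 to 0.68. Of the 11 that carry H2-K1 alone, 1 was lower and 6 higher, from -2.50 to 3.77. At 1 week, by contrast, 7 of the 10 and 10 of the 11 were higher. The gene-level value at 3 weeks lay near the lowest of these probe sets, and the cause was not tested.

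**Figure D3:**
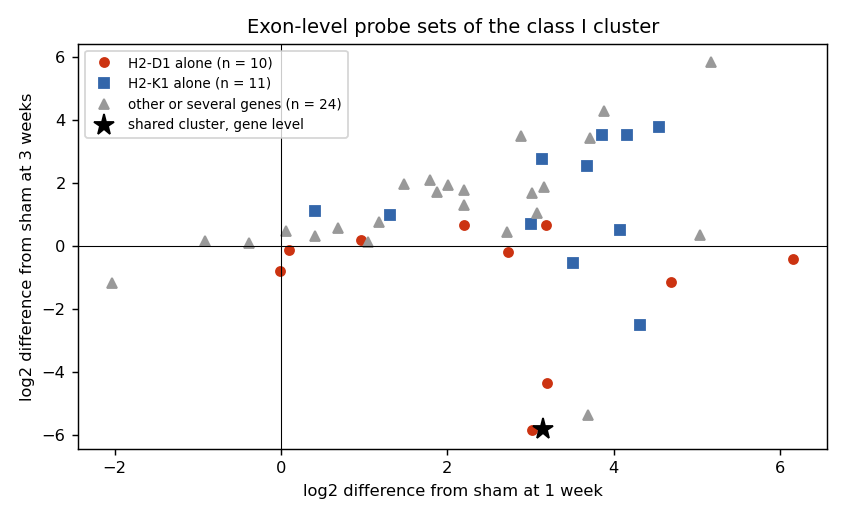
Log2 difference from sham of each exon-level probe set of the MHC class I cluster at 1 week (horizontal axis) and 3 weeks (vertical axis), by the gene or genes the probe set carries. The star is the gene-level value of the cluster, -5.80 at 3 weeks. Most points lie above 0 at both times while a few lie far below 0 at 3 weeks, among them points of H2-D1 alone at -5.85 and -4.36.

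Histones H2A and H2B package DNA in nucleosomes, and most of their genes are copied in chromosomal groups and are used mainly when cells replicate DNA. Of 12 histone clusters, 0, 3, 4 and 1 were higher and 1, 0, 1 and 0 lower at the 4 times. The cluster lower at 1 week, with a difference of -1.14, lists the differently named gene Xk before 3 histone genes. The cluster listing H2ac4, H2ac6 and 7 more H2A genes had signals of 3.84 in sham and 3.21, 7.87, 7.91 and 6.01 at the 4 times after injury. The cluster listing H2bc3, H2bc6, H2bc8 and 3 more had signals of 3.52, 1.91, 6.76, 7.37 and 4.20, lower at 1 day and higher at 3 days and 1 week. The exon-level medians of these 2 clusters were much smaller, 0.80 and 0.85 at 3 days and 1 week for the H2A cluster, and 0.47 and 1.02 for the H2B cluster. Of 5 markers of proliferating cells, 0, 5, 5 and 2 were higher at the 4 times, and their part in the histone signal was not tested. Clusters of histone genes with 1 symbol, 19 past the filter, included 1, 2, 5 and 1 higher and 1, 0, 4 and 0 lower.

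Families of receptors differed in their counts. Of 4 clusters of paired immunoglobulin-like and Fc receptors, 2, 3, 4 and 3 were higher and 0 lower, with a median of 4.13 at 1 week, and among 16 clusters of the same family with 1 symbol 4, 7, 11 and 11 were higher. Cd300a, an inhibitory receptor of myeloid cells, and Cd300c2 share a cluster that differed by 0.14, 1.51, 3.06 and 1.95. Of 4 clusters of the tumour necrosis factor family and its receptors, 1, 2, 3 and 1 were higher. Of 24 clusters of that family with 1 symbol, 2, 4, 9 and 8 were higher and 2, 0, 0 and 0 lower. Of 15 clusters of olfactory receptors, 5, 3, 4 and 2 were higher and 3, 2, 3 and 2 lower, with medians of 0.22, 0.00, 0.17 and -0.28. Of 69 olfactory receptor clusters with 1 symbol, 10, 8, 13 and 1 were higher and 6, 4, 6 and 5 lower. Some of the 15 passed the filter on 1 array only. That listing Olfr441, Olfr237 and Olfr444 did so at 1 week (5.35), and that of Olfr519 and Olfr516 in sham (3.96). In 3 of the 15 a differently named gene is listed first. The cluster listing the transcription factor gene Sall2 with Olfr1513 and Olfr1512 is among these, and it gives 1 of the falls at 1 day (-1.17), 3 days (-1.51) and 1 week (-1.71). Zinc finger clusters, 31 in number, had 0 rises at any time and 2, 3, 1 and 1 falls. Of 202 zinc finger clusters with 1 symbol, 3, 2, 4 and 3 were higher and 4, 10, 14 and 0 lower. Of 22 ribosomal protein clusters with 1 symbol, 3, 3, 5 and 1 were higher and 0, 0, 2 and 0 lower. The 13 shared ribosomal protein clusters had 1 rise, at 1 day, and 0 falls, with medians between -0.16 and 0.06. At the exon level their medians at 1 week were all above 0, from 0.37 to 1.63. The 2 levels had opposite signs at 1 week for the clusters listing first Rps7 (-0.76 at the gene level, 1.04 at the exon level), Rps19 (-0.97 and 1.22) and Rps15a (-0.97 and 1.63), among others.

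**Figure D4:**
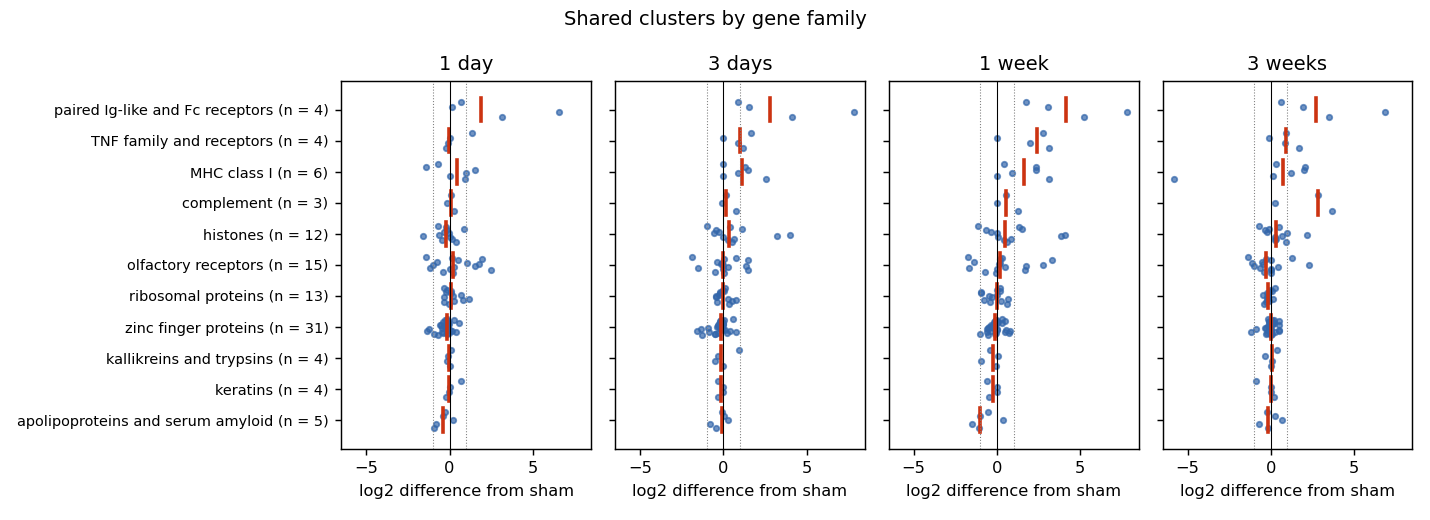
Log2 difference from sham of each shared cluster (blue points) in gene families with at least 3 clusters past the filter, with the median of the family (red bar), at 4 times. Dotted lines mark 2-fold. Paired immunoglobulin-like and Fc receptors lie to the right at 1 week, with a median of 4.13, and zinc finger and ribosomal protein clusters lie near 0.

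Clusters of muscle myosin heavy chains were high early. The cluster listing Myh4 and Myh1, fast myosins, had signals of 1.99 in sham and 6.28, 4.57, 2.98 and 1.97 at the 4 times after injury. The cluster listing Myh8, Myh2, Myh3 and Myh1 had signals of 3.59, 6.46, 6.23, 4.31 and 4.11. Both rose at 1 day and 3 days and were within 2-fold of sham at 1 week and 3 weeks. Of 9 skeletal muscle markers, 7, 7, 3 and 0 were higher, and their summed linear signal was 322 in sham and 3014, 1574, 372 and 333 at the 4 times after injury. The part of muscle tissue in these signals was not tested.

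The largest fall at 1 week was in the cluster of the beta-globin genes Hbb-b1 and Hbb-b2, which encode a chain of haemoglobin. Its signal was 8.29 in sham and 6.46, 6.73, 4.70 and 6.35 at the 4 times after injury. It was lower than sham on all 4 arrays, by 3.59 on the log2 scale at 1 week, while the median over its exon-level probe sets differed by -0.44, -0.38, -1.36 and -0.97. Of 3 erythrocyte markers found on their own, 1 was lower at each time. The clusters nearest to it over the 4 differences were those of Fgf11 and Spem1 at a distance of 1.13, Atp8a2 and Rps2 at 1.24, and Sntg1, Timm23 and Cks2 at 1.29.

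Several other clusters with large falls hold a gene known from neurons. Atp8a2, a lipid flippase of neurons, shares a cluster with the ribosomal protein gene Rps2 on another chromosome, with signals of 8.12, 7.05, 6.18, 5.22 and 6.79. Cntnap2, an adhesion protein of axons, shares one with the cyclin gene Ccni, with signals of 8.02, 7.08, 6.45, 5.24 and 6.88. Both were lowest at 1 week and were still lower than sham at 3 weeks, with differences of -1.34 and -1.14, the latter beside an exon-level median of -0.94. Fgf11 and Spem1 had signals of 7.11, 5.50, 5.02, 4.39 and 5.60. Nap1l2, a neuronal histone chaperone, and an unnamed gene model had 8.44, 7.72, 6.97, 5.72 and 7.15. Tubb3, the tubulin of neurons, and the melanocortin receptor gene Mc1r share a cluster with signals of 8.40, 7.63, 7.15, 6.16 and 7.01. Prkcz, a protein kinase C, and Prkcz2 had 7.31, 6.48, 5.80, 3.99 and 6.24. The imprinted locus of Snrpn, a splicing protein, and Snurf, carried on 1 transcript, had 10.79, 10.24, 9.64, 8.41 and 9.89. Each of these clusters was lowest at 1 week. Of 7 neuron markers, 1, 3, 7 and 2 were lower at the 4 times, with a median difference of -2.42 at 1 week. Of 5 oligodendrocyte markers, 0, 0, 4 and 2 were lower, with medians of -1.32 at 1 week and -0.77 at 3 weeks. The part of either cell type in the falls was not tested.

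Further clusters fell with other time courses. Ramac and Gm9830 share a cluster with signals of 5.93, 3.65, 3.71, 4.27 and 5.25, lowest at 1 day, but its exon-level probe sets had medians of -0.62 and -0.57 at 1 day and 3 days. Nudt10 and Nudt11, phosphohydrolases of like name, share 2 clusters. The one listing Nudt10 first had signals of 5.73, 5.09, 2.91, 4.14 and 4.67, lowest at 3 days. The other had signals of 4.07, 2.87, 2.74, 2.45 and 2.95, with differences of -1.21, -1.33, -1.62 and -1.12. It reached the filter only in sham, so the rule favoured its fall, and its signals after injury were low. The exon-level medians, from the same 6 probe sets for both, were -0.59, -0.90, -1.20 and -0.86, past 2-fold only at 1 week. Acss2, an acetyl-CoA synthetase, and Myh7b had signals of 8.17, 7.04, 6.27, 5.63 and 6.51. Tm7sf2, a sterol reductase, and Vps51 had 7.04, 6.03, 5.64, 4.89 and 5.64. These last 2 clusters fell at all 4 times at the gene level. The exon-level medians of the cluster of Acss2 and Myh7b were -0.50, -0.84, -0.93 and -0.53, under 2-fold at each time. Those of Tm7sf2 and Vps51 were -0.87, -1.83, -2.59 and -1.46, under 2-fold at 1 day only.

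Exon-level probe sets that carry 1 symbol alone give values for the genes of a cluster as far as the annotation separates them. Whether their probes also bind transcripts of a like copy was not tested. In 135 clusters, at least 2 genes had 3 or more such probe sets. The medians of the highest and lowest gene lay at least 2-fold apart in 20, 39, 42 and 22 of the 135 at the 4 times. In 34 of the 42 at 1 week, the gene-level value of the cluster lay within 0.5 of the nearest gene's median. The nearest gene was picked by this distance and both levels come from the same pools, so nearness is partly built in. At 1 week, such a gap was found in 23 of 49 clusters whose genes lie on different chromosomes, with a median gap of 0.95. It was found in 8 of 38 clusters of differently named genes on 1 chromosome, with a median gap of 0.36, and in 7 of 40 of like-named genes, with 0.65. Clusters that list the same genes are each counted, with the same probe sets and the same gap. The 2 clusters of Tnfrsf22 and Tnfrsf23 are an example, so these counts are not of distinct sets of genes.

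**Figure D5:**
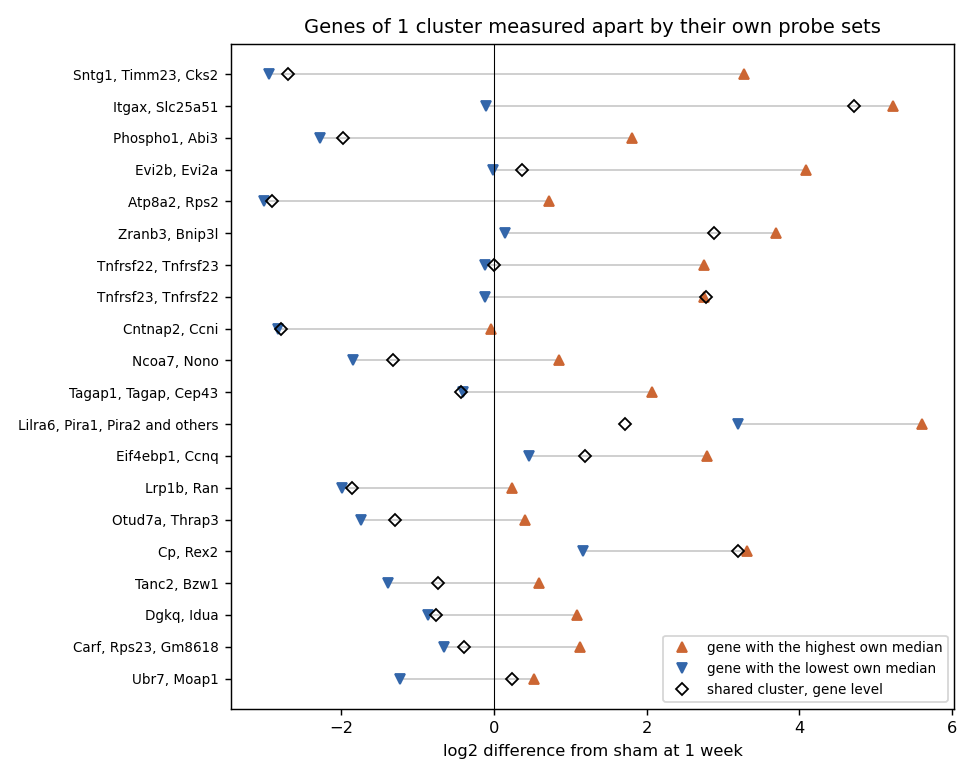
The 20 clusters with the largest gap between the genes they list, at 1 week. Each row is 1 cluster: triangles give the median log2 difference from sham of the probe sets carrying only the highest or the lowest gene, and the open diamond the gene-level value of the whole cluster. Diamonds lie near 1 of the triangles in most rows, as in the cluster of Sntg1, Timm23 and Cks2, at -2.69 beside -2.94 for Sntg1 and 3.27 for Cks2.

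Sntg1, a syntrophin of neurons, shares a cluster with Timm23, a mitochondrial import protein, and Cks2, a partner of cell cycle kinases. The cluster fell by 2.69 at 1 week, and the 21 probe sets of Sntg1 alone fell by 2.94, while the 14 of Timm23 alone differed by -0.15 and the 5 of Cks2 alone rose by 3.27 (SD 2.14 over probe sets). Itgax encodes the integrin CD11c of dendritic cells and macrophages and shares a cluster with the mitochondrial carrier gene Slc25a51. The cluster rose by 4.71, the probe sets of Itgax alone by 5.22, and those of Slc25a51 alone differed by -0.10. The probe sets of Sntg1 differed from the shared value of their cluster by -0.25, and those of Itgax by 0.51, just outside the distance of 0.5 used above.

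Genes on 1 chromosome could part as well. Phospho1, a phosphatase known from bone mineralisation, and its overlapping neighbour Abi3, an adaptor of the actin cytoskeleton, share a cluster that fell by 1.97 at 1 week. The probe sets of Phospho1 alone fell by 2.27 and those of Abi3 alone rose by 1.81, so the rise of Abi3 is not visible in the shared value. Evi2b and Evi2a share a cluster that differed by 0.37 at 1 week, while the probe sets of Evi2b alone rose by 4.08 and those of Evi2a alone differed by 0.00. Tnfrsf22 and Tnfrsf23, decoy receptors for a death ligand in mice, share 2 clusters. The cluster that lists Tnfrsf22 first had signals of 5.53, 5.56, 5.53, 5.53 and 5.43 and the one that lists Tnfrsf23 first 3.56, 4.90, 5.23, 6.34 and 4.45. At 1 week the first did not differ from sham, at 0.00, beside -0.12 for the probe sets of Tnfrsf22 alone, and the other rose by 2.78, beside 2.75 for those of Tnfrsf23 alone.

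In clusters with genes that fell, Atp8a2 alone fell by 3.00 at 1 week and Rps2 alone differed by 0.73, and Cntnap2 alone fell by 2.82 and Ccni alone differed by -0.03. The cluster of Zranb3, a DNA repair enzyme, and Bnip3l, a mitophagy receptor, rose by 2.88, beside 3.70 for Zranb3 alone and 0.15 for Bnip3l alone. In each of these clusters the shared value lay nearer to the gene that moved.

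The exon level gives a second summary of the called clusters from the same pools, not an independent measurement. Of 76 clusters higher at 1 week, 70 had at least 4 exon-level probe sets and 58 of these had an exon-level median at least 2-fold higher. Of 70 lower at 1 week, 65 had 4 probe sets and 49 had a median at least 2-fold lower. At 1 day it was 17 of 23 for the higher clusters and 6 of 24 for the lower, and at 3 days 32 of 41 and 33 of 51. At 3 weeks it was 37 of 50 for the higher and 7 of 20 for the lower. These medians can mix genes that moved apart. For the cluster of Phospho1 and Abi3 the median was 1.35 at 1 week, beside -1.97 at the gene level. The 2 clusters of Tnfrsf22 and Tnfrsf23 have the same exon-level median at 1 week, 0.98, beside 0.00 and 2.78 at the gene level.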

How the data were processed

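RNA was reverse transcribed, labelled and hybridised to Affymetrix arrays, per the labels' protocols, and the submitters' processing notes name GCOS and the mm8 build. How the arrays were normalized was not given in the sources used here. The deposited tables hold log signals whose base is not stated. The deposited values were taken as log2 from their range, and every 2-fold call rests on this. They cover 23332 transcript clusters at the gene level and 229581 probe sets at the exon level, with 5 samples at each level. The difference from sham of each cluster was taken on that scale and called at 1 (2-fold), with no test. Clusters were kept when their highest value reached the 40th percentile of the gene-level values (3.79). Exon-level probe sets were kept above the 40th percentile of their own level (4.85). Families, relations between genes and named clusters followed fixed name patterns and rules of size (per time, the 6 largest rises and falls with at least 4 probe sets, 75% moving the same way). Further clusters were chosen after their values were seen: those highest at 3 weeks, the Naip, Lyz1, Ang and Snrpn clusters, and the pairs measured apart. The clusters, families and marker lists were chosen with earlier results of these data known. Gene names came from the platform annotation, updated through RefSeq (GRCm38.p6). Promoters were aligned globally with Biopython 1.88. Other tools were Python 3.11.15, pandas 2.3.3, numpy 2.4.6 and matplotlib 3.10.9. The counting was tested on simulated data.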

Additional observations from a re-analysis of the deposited data

How the results depend on the processing

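No paired analysis was possible because each group has 1 sample per level, and no replicate could be left out. With exon-level medians, the clusters of H2-T10 and H2-T22 at 1 day (0.11), Apol9b and Apol9a at 1 week (0.052) and H2-D1 with H2-Q2, H2-K1 and 4 more symbols at 3 weeks (0.68) changed sign, and the number lower was 17 at 1 day and 10 at 3 weeks. With quantile normalization the number lower at 1 day was 14, and the median difference was 0.012 at 1 day and -0.10 at 3 weeks. With arrays centred on their medians the number lower was 17 at 1 day and 34 at 3 weeks, and the median at 3 weeks was -0.16. A filter at the 60th percentile left 19 higher at 1 day. Requiring both arrays at the filter left 14, 26 and 32 higher at 1 day, 3 days and 3 weeks. The cause was not tested. Of the other counts and medians under an alternative, 84 stayed within 1.5 times (counts) or 0.1 (medians) of the reported value. Of the family medians under an alternative, 213 stayed within that range and 127 moved further. Of the differences of named clusters, 627 stayed on their side of 2-fold, 47 dropped below it and 11 passed it. Quantile normalization moved the median of all clusters from -0.14 to -0.01 at 1 day and from -0.11 to -0.01 at 3 days, and centring moved it from 0.00 to -0.16 at 3 weeks. Protein sequences were not used here, so the planned comparison of proteins was not run. Arrays of 1 pool each limit the precision of every value.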
